A study of Mus musculus with 3 samples.

Results

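Interferon-stimulated genes are described here as a list of 42 genes, taken by name from the count table and 42 of its 18029 genes. The genes were followed one by one and as a sum in donor CD4+ and CD8+ T cells of 3 treatment groups. Recipients were B6D2F1 mice, conditioned by total body irradiation and transplanted with B6 bone marrow, B6 T cells and a small number of alloreactive TEa TCR transgenic T cells, which recognize a recipient peptide. All 3 groups shared that transplant, so the comparison is between treatments of mice with the same graft, and untransplanted mice were not analysed here. The groups received a daily dose of saline or of cyclosporine A (CSA, a calcineurin inhibitor that blocks NFAT signaling in T cells), given at either 5 or 50 mg/kg, from day 0 to day 6. On day 7 the spleens of the 6 mice in a group were combined, 2 mice to a pool, which gave 3 pools with a hashtag each, and the CD4+ and CD8+ T cells sorted from them entered the droplets together. Each group was 1 droplet capture for 5′ single-cell RNA-Seq, so a capture and its treatment cannot be told apart, and p-values measure the spread between pools of 1 capture.

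Interferons are cytokines that cells release on sensing viral nucleic acid or, for IFN-γ, that activated T and NK cells release. Type I interferon acts through JAK1 and TYK2 on the complex ISGF3, which holds STAT2 and IRF9 and binds the interferon-stimulated response element (ISRE) in the promoters of target genes. IFN-γ acts through JAK1 and JAK2 and leads to binding at the GAS element. In T cells, a subset with a high interferon response is a common finding of single-cell work, and the products of the genes listed here sense or restrict viruses, trim the response itself or remodel GTPase and ubiquitin-like pathways.

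The ISRE was looked for in the RefSeq promoters of these genes (GRCm38.p6, 250 bases before to 50 bases after the start site), searched on both strands as GAAA, 2 bases of any kind and GAAA. Of the 42 genes, 33 had a promoter in that table and 19 of the 33 (57.6%) held the motif, beside 1079 of 27025 genes (3.99%) in the whole table. The GAS motif, searched on both strands as TTC, 3 bases of any kind and GAA, was in 6 of the 33 (18.2%) beside 9.55% of all genes. No promoter was in the table for Usp18, Parp9, Parp14, Oas2, Zbp1, Dhx58, Mx1, Rtp4 and Ifi27l2a. The stretches of 160 bases before the start site are shown for 5 genes whose values are given below and which moved differently with CSA. Isg15 and Bst2 passed as higher at 50 mg/kg in both lineages on the TMM scale explained below (neither passed as higher by total UMIs), Ifit3 passed as higher at that dose in CD8+ but not in CD4+ T cells, and Oas1a and Slfn5 were lower in both. Each is written 5′ to 3′ on the gene's own strand, and capitals mark the ISRE letters, which lie on the opposite strand in Ifit3. Isg15 is at chr4:156200819-156200978 on the minus strand, Bst2 at chr8:71537473-71537632 on the minus strand, Ifit3 at chr19:34583369-34583528 on the plus strand, Oas1a at chr5:120907526-120907685 on the minus strand and Slfn5 at chr11:82951942-82952101 on the plus strand.
Isg15: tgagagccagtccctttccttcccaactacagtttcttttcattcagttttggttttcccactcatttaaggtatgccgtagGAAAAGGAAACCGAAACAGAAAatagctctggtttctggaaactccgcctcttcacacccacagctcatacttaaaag
Bst2: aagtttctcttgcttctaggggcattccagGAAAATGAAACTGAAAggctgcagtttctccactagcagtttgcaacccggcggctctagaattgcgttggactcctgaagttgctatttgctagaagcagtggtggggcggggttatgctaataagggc
Ifit3: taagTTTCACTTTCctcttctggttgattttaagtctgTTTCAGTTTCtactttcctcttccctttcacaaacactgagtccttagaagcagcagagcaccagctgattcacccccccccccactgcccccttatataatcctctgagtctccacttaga
Oas1a: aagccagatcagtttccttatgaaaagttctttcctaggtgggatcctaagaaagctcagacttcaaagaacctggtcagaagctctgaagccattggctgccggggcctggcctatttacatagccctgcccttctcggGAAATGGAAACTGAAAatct
Slfn5: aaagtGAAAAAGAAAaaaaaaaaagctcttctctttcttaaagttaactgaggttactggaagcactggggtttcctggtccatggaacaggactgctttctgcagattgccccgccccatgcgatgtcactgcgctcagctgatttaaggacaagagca
The motif occurred 3 times, overlapping, in Isg15 (first bases from -78 to -66, counted from the start site), with 2 overlapping copies in Bst2 and in Oas1a, 2 separate copies in Ifit3 and 1 in Slfn5. Genes that were higher and genes that were lower both held it. Of the CD4+ calls at 50 mg/kg described below, 2 of 6 genes that were higher and 11 of 17 that were lower had the motif, and in CD8+ T cells 7 of 12 and 7 of 10. The match is of letters in this window and shows no binding.

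The counts covered 10091 CD4+ cells, from which 280 further TEa cells were left out, and 10833 CD8+ cells. Pools held 875 to 1479 CD4+ cells with 3994968 to 7592334 UMIs, and 692 to 1615 CD8+ cells with 4392100 to 11454636 UMIs. Median UMIs per cell were 3097, 4396 and 5979.5 in CD4+ and 4108, 6122 and 7183 in CD8+ T cells for saline, 5 and 50 mg/kg. Ribosomal protein and mitochondrial genes took 17.1%, 25.1% and 22.8% of CD4+ UMIs and 15.6%, 24.6% and 23.6% of CD8+ UMIs in that order. Cd8a was at 0 in the CD4+ cells and Cd4 at 0 in the CD8+ cells. Of 20986 distinct cell barcodes, 218 (1.04%) were found in more than 1 capture. Pool 3 of 50 mg/kg stood apart for these genes in CD8+ T cells, as shown by the sums below, and its part in each count is given where it matters.

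With CSA the genes split rather than moving together. At 50 mg/kg in CD4+ T cells, 22 of the 42 genes were lower than with saline and 8 were higher, while in CD8+ T cells 14 of 40 tested genes were higher and 12 lower (edgeR quasi-likelihood test, adjusted p under 0.05). The background was high: 34.7% of all genes tested in CD4+ T cells were higher and 35.8% lower at this dose, and 37.1% and 36.9% in CD8+ T cells. The median log2 change of the genes was -0.33 in CD4+ and 0.07 in CD8+ T cells, beside -0.01 and 0.00 over all genes tested. With all pools, the CD8+ share of calls in each direction was thus close to or below the background, and the CD4+ share of lower genes was above it. Leaving out a pool gave 11 to 18 higher and 10 to 14 lower genes in CD8+ T cells, and 7 to 9 and 22 to 26 in CD4+ T cells. At 5 mg/kg, 11 genes were higher and 12 lower in CD4+ T cells (background 26.1% and 25.6%, median 0.03), and 15 were higher and 10 lower in CD8+ T cells (background 29.9% and 30.3%, median 0.12). Oas2 and Ifi44 had too few UMIs to be tested in CD8+ T cells, 52 and 35 over all pools.

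Against saline, none of the 42 genes passed in opposite directions in the lineages, which was also rare over all genes. At 50 mg/kg, 20 of the 40 genes tested in both lineages (50%) passed in both, 8 higher and 12 lower, beside 6504 of all 10420 genes (62.4%), of which 98.4% had the same direction. At 5 mg/kg, 19 (47.5%) passed in both, 9 higher and 10 lower, beside 4868 of all genes (46.7%), of which 99.9% had the same direction. From 5 to 50 mg/kg, 11 genes (27.5%) passed in both lineages, beside 27.2% of all genes. Of those 11, Ifi47 was higher in both and 8 were lower in both, while Ifit3 and Samd9l passed in opposite directions, as 90 of 2830 genes did over the whole table. By total UMIs, the scale compared below, the CD8+ rises of Ifi47 and Ifit3 and the CD4+ rise of Samd9l did not pass. Both doses share the saline pools, so their values are set side by side. Usp18 in CD4+ and Oas1a in CD8+ T cells were higher than saline at 5 mg/kg on the TMM scale and lower at 50 mg/kg. Between the doses, 24 genes were lower at 50 than at 5 mg/kg in CD4+ T cells and 3 higher (background 21.3% and 19.9%, median -0.30), and in CD8+ T cells 10 were lower and 6 higher (background 21.0% and 20%, median -0.15). Those 6 became 12 without pool 3 of 50 mg/kg, and 2 without pool 1 or pool 2 of 50 mg/kg or pool 3 of 5 mg/kg, while the 10 became 6 without pool 3 of 50 mg/kg or pool 1 of 5 mg/kg.

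These directions depend on the scale for the genes that were higher. TMM scaling places the median gene near 0, whereas scaling by total UMIs moved the median of all genes to -0.37 and -0.45 in CD4+ T cells at 5 and 50 mg/kg, and to -0.43 and -0.53 in CD8+ T cells. By total UMIs, 2 of the genes were higher and 33 lower at 50 mg/kg in CD4+ T cells, and 2 higher and 24 lower in CD8+ T cells. All 22 CD4+ and all 12 CD8+ genes that were lower passed on both scales, and so did Ifi47 and Ifi27l2a among the higher genes in CD4+ and Ifit3b and Ifi47 in CD8+ T cells. At 5 mg/kg the genes higher on both scales were Irf7, Isg15, Bst2 and Ifi27l2a in CD4+ and Bst2 and Ifi27l2a in CD8+ T cells. All levels below are CPM, UMIs of a gene scaled to a library of fixed size, with TMM scaling unless total UMIs are named, and a change is a log2 difference from saline ± its standard error.

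**Figure D1:**
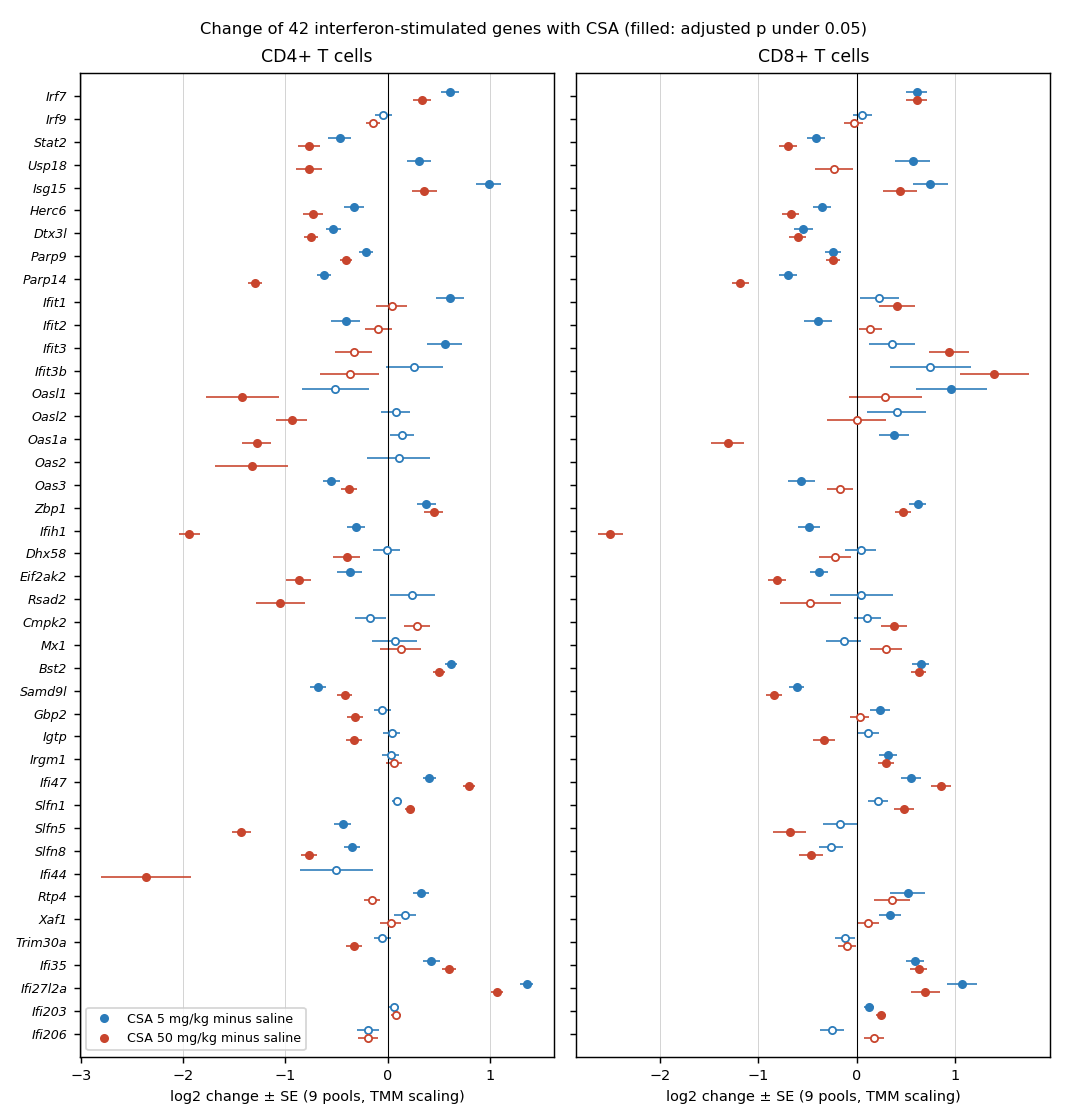
Log2 change ± SE from saline of each of the 42 genes at CSA 5 and 50 mg/kg in CD4+ (left) and CD8+ T cells (right), from the fit of 9 pools, with filled points past an adjusted p of 0.05. Of genes with a mean of at least 20 CPM, Ifih1 sits farthest left in both panels (-1.94 and -2.50 at 50 mg/kg) and Ifi27l2a to the right in both (1.07 and 0.70).

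Among the genes of ISGF3 and its feedback, Stat2 passed as lower on both scales and Irf9 by total UMIs alone. Irf9 (chr14:55603571-55610030), which gives ISGF3 its sequence recognition and shares exon sequence with Rnf31, was at 77.9, 78.2 and 73.9 CPM in the saline pools, at 78.7, 76.4 and 69.5 CPM at 5 mg/kg and at 78.2, 67.8 and 62.7 CPM at 50 mg/kg in CD4+ T cells. The groups overlapped, and the log2 change at 50 mg/kg was -0.14 ± 0.07 (adjusted p = 0.0894) in CD4+ and -0.03 ± 0.10 (adjusted p = 0.778) in CD8+ T cells. By total UMIs Irf9 was lower at that dose in both lineages (-0.58 and -0.56, past the threshold). Stat2 (chr10:128270559-128292849), the STAT found only in type I and III interferon signaling, was at 26.4, 33.7 and 33.6 CPM in the saline pools, at 22.2, 21.9 and 24.1 CPM at 5 mg/kg and at 20.3, 19.5 and 16.0 CPM at 50 mg/kg in CD4+ T cells. The 3 groups did not overlap, with saline highest and 50 mg/kg lowest. Stat2 in CD8+ T cells was at 23.7, 23.1 and 24.4 CPM, then 17.8, 17.9 and 17.7 CPM, then 16.2, 13.9 and 13.7 CPM, the same order without overlap. Stat2 fell by 0.77 ± 0.11 in CD4+ (adjusted p = 3.53e-06) and by 0.70 ± 0.09 in CD8+ T cells (adjusted p = 1.46e-06) at 50 mg/kg.

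Irf7 (chr7:141262706-141266481), the factor that amplifies type I interferon production, moved the other way. Its CD4+ levels were 70.2, 64.2 and 71.6 CPM in the saline pools, 114, 101 and 101 CPM at 5 mg/kg and 104, 83.3 and 74.2 CPM at 50 mg/kg. Every CSA pool was above every saline pool, and the doses overlapped. Irf7 rose by 0.61 ± 0.09 at 5 mg/kg (adjusted p = 1.14e-05) and by 0.34 ± 0.09 at 50 mg/kg (adjusted p = 0.00234) on the TMM scale, while by total UMIs the change at 50 mg/kg was -0.10. Irf7 levels in CD8+ T cells were 46.5, 49.9 and 53.3 CPM, then 85.1, 74.2 and 72.3 CPM, then 91.4, 77.9 and 61.5 CPM, with a rise of 0.61 ± 0.11 at each dose (adjusted p = 1.13e-04 and 4.68e-05). Usp18 (chr6:121245906-121270917), the ISG15 protease that also blocks the type I receptor, reversed with dose in CD4+ T cells: 23.7, 25.1 and 23.7 CPM in the saline pools, 30.2, 29.6 and 30.0 CPM at 5 mg/kg and 18.1, 13.2 and 11.6 CPM at 50 mg/kg. The 3 groups did not overlap, and the middle dose was highest. The changes were 0.31 ± 0.12 (adjusted p = 0.0301) and -0.77 ± 0.13 (adjusted p = 1.52e-05), and the rise at 5 mg/kg was -0.05 by total UMIs. Usp18 in CD8+ T cells was at 8.42, 10.1 and 10.8 CPM, then 15.5, 17.0 and 12 CPM, then 10.3, 9.69 and 5.82 CPM, with a change at 50 mg/kg of -0.23 ± 0.19 (adjusted p = 0.288).

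Isg15 (chr4:156199424-156200818), the ubiquitin-like modifier that marks this response, was highest at the lower dose in CD4+ T cells. The saline pools held 78.8, 92.8 and 81.7 CPM, the 5 mg/kg pools 149, 165 and 188 CPM and the 50 mg/kg pools 141, 93.3 and 93.2 CPM. Both CSA groups were above saline without overlap, although 2 of the 50 mg/kg pools lay within 1 CPM of the highest saline pool. Isg15 rose by 0.99 ± 0.12 at 5 mg/kg (adjusted p = 4.59e-07) and by 0.36 ± 0.12 at 50 mg/kg (adjusted p = 0.0110), the latter -0.08 by total UMIs. Isg15 in CD8+ T cells was at 52.4, 49.2 and 47.9 CPM, then 93.2, 91.7 and 70.7 CPM, then 92.7, 69.3 and 43.8 CPM. Pool 3 of 50 mg/kg was below all saline pools, and the rise of 0.44 ± 0.17 (adjusted p = 0.0306) was -0.09 by total UMIs. The other ubiquitin and ADP-ribose enzymes fell. Parp14 (chr16:35832874-35871544), an ADP-ribosyltransferase that shares exon sequence with a predicted gene, was at 120.2, 126 and 124 CPM in the saline pools, 88.6, 80.0 and 74.1 CPM at 5 mg/kg and 54.1, 47.9 and 48.4 CPM at 50 mg/kg in CD4+ T cells. Parp14 in CD8+ T cells was at 90.0, 88.3 and 88.3 CPM, 61.1, 54.3 and 50.5 CPM, and 47.4, 37.3 and 34.2 CPM. Each step down was free of overlap in both lineages, and at 50 mg/kg Parp14 fell by 1.30 ± 0.07 (adjusted p = 2.86e-13) and by 1.18 ± 0.09 (adjusted p = 8.78e-10).

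Parp9 and Dtx3l, partners in a ubiquitin ligase complex and neighbours on chr16 beside Parp14, fell by 0.41 ± 0.06 and 0.75 ± 0.07 in CD4+ and by 0.24 ± 0.07 and 0.60 ± 0.09 in CD8+ T cells. Herc6 (chr6:57581000-57664632), the mouse ligase that attaches ISG15, was at 40.9, 40.9 and 40.0 CPM in the saline pools, 35.3, 31.5 and 30.1 CPM at 5 mg/kg and 28.6, 26.2 and 22.2 CPM at 50 mg/kg in CD8+ T cells. All 3 groups were apart there, and Herc6 fell by 0.67 ± 0.09 (adjusted p = 2.14e-06), beside 0.73 ± 0.10 in CD4+ T cells. So of the 5 genes of this role, Isg15 was higher and 4 lower in both lineages at both doses.

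**Figure D2:**
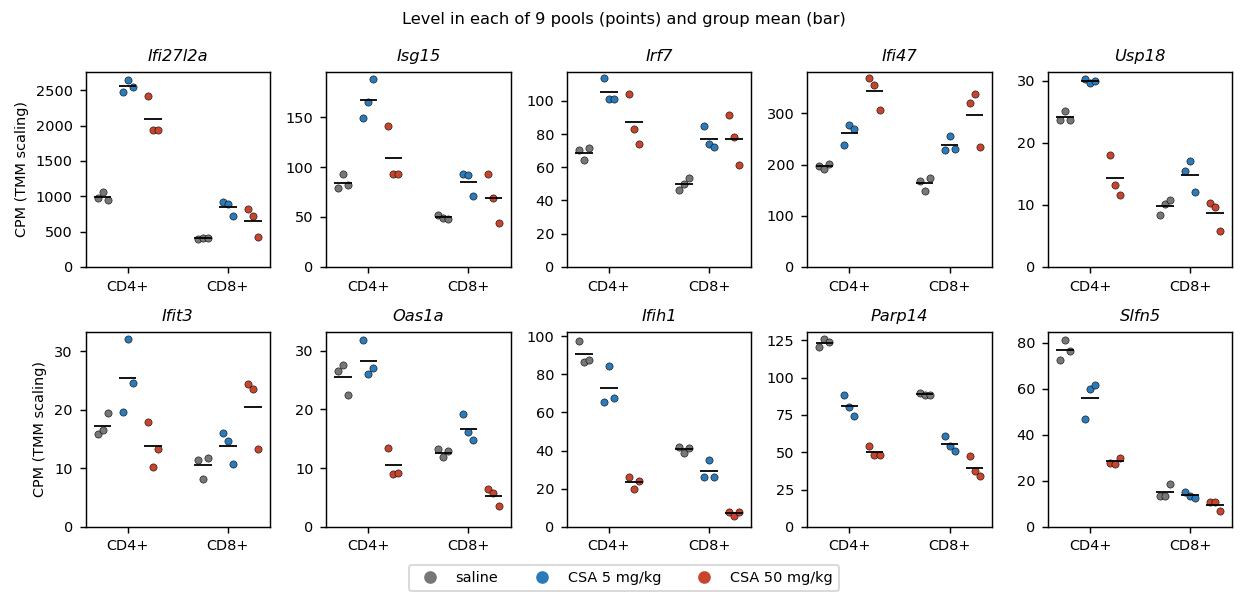
Level of 10 of the genes in each of the 9 pools (points, CPM with TMM scaling) and the group mean (bar) for saline, CSA 5 mg/kg and CSA 50 mg/kg, with CD4+ T cells on the left and CD8+ T cells on the right of each panel. Ifih1 and Parp14 step down with dose in both lineages and Slfn5 in CD4+ T cells. Usp18 and Oas1a have their highest mean at 5 mg/kg, where Oas1a overlaps saline in CD4+ T cells. By total UMIs the CD4+ means were higher with saline than at 5 mg/kg (Usp18 29.0 and 28.0 CPM, Oas1a 30.6 and 26.5 CPM). Ifit3 at 50 mg/kg lies at 10.3 to 17.9 CPM in CD4+ but 13.3 to 24.4 CPM in CD8+ T cells.

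Of the Ifit genes, whose products bind foreign RNA caps, Ifit3 and Ifit3b differed between the lineages at 50 mg/kg by the interaction test described below, whereas Ifit1 (difference 0.35 ± 0.18, adjusted p = 0.186) and Ifit2 (0.21 ± 0.14, adjusted p = 0.328) did not pass it. Ifit3 (chr19:34583531-34588731) was at 15.9, 16.5 and 19.4 CPM in the saline pools, 19.6, 32.1 and 24.6 CPM at 5 mg/kg and 17.9, 10.3 and 13.3 CPM at 50 mg/kg in CD4+ T cells. Its CD8+ levels were 11.5, 8.24 and 11.8 CPM, 16.0, 14.7 and 10.8 CPM, and 24.4, 23.6 and 13.3 CPM. The 50 mg/kg pools overlapped saline in CD4+ T cells and were all above saline in CD8+ T cells. Between 5 and 50 mg/kg Ifit3 fell by 0.89 ± 0.17 in CD4+ (adjusted p = 2.87e-04) and rose by 0.58 ± 0.21 in CD8+ T cells (adjusted p = 0.0352). That CD8+ rise did not pass by total UMIs. Its neighbour Ifit3b, near-identical to Ifit3 so that reads may be split between them, rose by 1.40 ± 0.35 in CD8+ T cells at 50 mg/kg (adjusted p = 0.00149), from 179 UMIs over 9 pools. Ifit1 rose by 0.61 ± 0.14 at 5 mg/kg in CD4+ and by 0.41 ± 0.18 at 50 mg/kg in CD8+ T cells (adjusted p = 0.00108 and 0.0473). By total UMIs these were 0.25 and -0.12, neither past the threshold. Ifit2 fell by 0.41 ± 0.14 and 0.39 ± 0.14 at 5 mg/kg and did not pass at 50 mg/kg in either lineage (-0.09 ± 0.13 and 0.14 ± 0.12).

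The Oas genes, synthetases of the 2-5A messenger that activates RNase L, and their Oasl relatives fell in CD4+ T cells at 50 mg/kg, 5 of 5. Oas1a (chr5:120896256-120907521) was at 26.6, 27.6 and 22.4 CPM in the saline pools, 31.8, 26.0 and 27 CPM at 5 mg/kg and 13.4, 9.01 and 9.26 CPM at 50 mg/kg in CD4+ T cells. The CD8+ pools held 13.2, 11.9 and 12.9 CPM, 19.2, 16.1 and 14.8 CPM, and 6.52, 5.71 and 3.47 CPM. The 50 mg/kg pools were below all others in both lineages, and the 5 mg/kg pools were above all saline pools in CD8+ T cells. Oas1a fell by 1.28 ± 0.14 and by 1.31 ± 0.17 at 50 mg/kg (adjusted p = 6.62e-08 and 2.33e-06), and its CD8+ rise of 0.38 ± 0.15 at 5 mg/kg (adjusted p = 0.0394) was -0.05 by total UMIs. Oas3 fell at 5 mg/kg in both lineages, by 0.55 ± 0.08 and 0.56 ± 0.14, and at 50 mg/kg in CD4+ T cells by 0.38 ± 0.08, with -0.17 ± 0.13 in CD8+ T cells. Oasl1, Oasl2 and Oas2 were low, at 117, 574 and 128 CD4+ UMIs over 9 pools, and fell by 1.42 ± 0.36, 0.94 ± 0.15 and 1.33 ± 0.36 in CD4+ T cells. In CD8+ T cells at 50 mg/kg Oasl1 and Oasl2 gave 0.29 ± 0.37 and 0.00 ± 0.30, and Oasl1 rose by 0.96 ± 0.36 at 5 mg/kg. That rise rests on 119 CD8+ UMIs over 9 pools, its pools overlapped saline, and it did not pass by total UMIs.

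The sensors of viral nucleic acid did not share a direction. Ifih1 (chr2:62595798-62646255), which encodes the double-stranded RNA sensor MDA5, fell more than any other of the 42 genes with a mean of at least 20 CPM. In CD4+ T cells it was at 97.6, 86.6 and 87.3 CPM in the saline pools, 65.6, 84.5 and 67.6 CPM at 5 mg/kg and 26.3, 20 and 24.0 CPM at 50 mg/kg. Ifih1 in CD8+ T cells was at 41.7, 38.8 and 41.6 CPM, 26.1, 35.3 and 26.0 CPM, and 7.91, 5.71 and 7.76 CPM. None of the groups overlapped. At 50 mg/kg Ifih1 fell by 1.94 ± 0.10 (adjusted p = 3.04e-13) and by 2.50 ± 0.13 (adjusted p = 7.22e-12). Eif2ak2 (chr17:78852564-78882573), the kinase PKR that halts translation on binding double-stranded RNA, went from 50.3, 51.6 and 46.2 CPM to 39.8, 43.2 and 32.8 CPM and to 34.1, 22.5 and 24.8 CPM in CD4+ T cells. Its CD8+ levels went from 40.2, 41.9 and 45.2 CPM to 34.3, 33.8 and 30.7 CPM and to 26.1, 25.8 and 21.2 CPM. Saline pools were above all CSA pools in both lineages, and the fall at 50 mg/kg was 0.87 ± 0.12 and 0.81 ± 0.09 (adjusted p = 1.11e-06 and 1.67e-07). Dhx58, the regulator LGP2, fell by 0.40 ± 0.13 in CD4+ T cells, with -0.22 ± 0.16 in CD8+ T cells. Zbp1, a sensor of Z-form nucleic acid, rose instead, by 0.45 ± 0.09 and 0.47 ± 0.08. By total UMIs these were 0.01 and -0.06, neither past the threshold.

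Of the antiviral effectors, Bst2 and Samd9l passed in opposite directions. Bst2 (chr8:71534255-71537456), the tetherin that holds budding virus at the membrane, was at 95.0, 97.7 and 100.1 CPM in the saline pools, 161, 149.8 and 149 CPM at 5 mg/kg and 169, 164 and 123 CPM at 50 mg/kg in CD8+ T cells. All CSA pools were above saline, and Bst2 rose by 0.63 ± 0.08 (adjusted p = 2.41e-06), beside 0.50 ± 0.06 in CD4+ T cells. Samd9l (chr6:3372257-3399572), a restriction factor that lowers translation, was at 71.1, 66.0 and 69.9 CPM, 47.3, 42 and 46.0 CPM, and 42.6, 40.9 and 33.1 CPM in CD8+ T cells. In CD4+ T cells it was at 66.0, 67.8 and 60.3 CPM, 38.7, 40.7 and 40.9 CPM, and 52.2, 49.4 and 44.0 CPM, so that the 5 mg/kg pools were lowest there. Saline was above every CSA pool in each lineage. From 5 to 50 mg/kg Samd9l rose by 0.27 ± 0.08 in CD4+ (adjusted p = 0.0132) and fell by 0.23 ± 0.09 in CD8+ T cells (adjusted p = 0.0497). That CD4+ rise was 0.19 by total UMIs and did not pass. Rsad2, the radical-SAM enzyme viperin, fell by 1.05 ± 0.24 in CD4+ T cells, with -0.47 ± 0.31 in CD8+ T cells. Its neighbour Cmpk2, a nucleotide kinase, gave 0.29 ± 0.13 (adjusted p = 0.0511) in CD4+ T cells and rose by 0.38 ± 0.13 in CD8+ T cells, the latter -0.15 by total UMIs. Mx1, a dynamin-like GTPase, passed in neither lineage (0.13 ± 0.20 and 0.30 ± 0.16).

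Among the 4 interferon-inducible GTPases of the list, which act on the membranes of pathogen vacuoles, Ifi47 rose at both doses and in both lineages. Ifi47 (chr11:49076587-49096974), which shares exon sequence with Olfr56, was at 198, 192 and 201 CPM in the saline pools, 239, 277 and 269.6 CPM at 5 mg/kg and 369.9, 356 and 306 CPM at 50 mg/kg in CD4+ T cells. Ifi47 in CD8+ T cells was at 168, 148 and 174 CPM, 229, 255 and 229.8 CPM, and 321, 337 and 235 CPM. Only the CD8+ pools of the 2 doses overlapped, through pool 3 of 50 mg/kg. Ifi47 rose by 0.80 ± 0.06 and 0.86 ± 0.10 at 50 mg/kg (adjusted p = 1.83e-10 and 2.80e-07). Igtp, which shares exon sequence with Irgm2, fell by 0.33 ± 0.08 and 0.33 ± 0.11, and Gbp2 fell by 0.32 ± 0.08 in CD4+ T cells, with 0.03 ± 0.10 in CD8+ T cells. Irgm1 gave 0.06 ± 0.08 in CD4+ T cells and rose by 0.30 ± 0.08 in CD8+ T cells, -0.23 by total UMIs.

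The Schlafen genes, regulators of T cell quiescence and of translation, also split. Slfn5 (chr11:82951349-82964840) was at 72.7, 81.0 and 76.5 CPM in the saline pools, 46.7, 59.9 and 61.8 CPM at 5 mg/kg and 27.9, 27.4 and 30.0 CPM at 50 mg/kg in CD4+ T cells, without overlap. It fell by 1.43 ± 0.09 (adjusted p = 6.32e-12) there and by 0.68 ± 0.17 (adjusted p = 0.00130) in CD8+ T cells. Slfn8 (chr11:83002158-83020810) went from 48.4, 45.4 and 46.2 CPM to 32.5, 37.1 and 38.8 CPM and to 29.6, 26.9 and 25.4 CPM in CD4+ T cells. Its 3 groups were also apart, and the fall was 0.77 ± 0.08 in CD4+ and 0.46 ± 0.12 in CD8+ T cells. Slfn1, on the same stretch of chr11, rose by 0.22 ± 0.05 and 0.48 ± 0.10, but was -0.22 and -0.04 by total UMIs, the former past the threshold.

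The remaining genes were led by Ifi27l2a (chr12:103442167-103443680), a small mitochondrial membrane protein gene and the largest source of UMIs in the list. In CD4+ T cells it was at 974, 1067 and 942 CPM in the saline pools, 2483, 2648 and 2554 CPM at 5 mg/kg and 2418, 1934 and 1935 CPM at 50 mg/kg. The CD8+ levels were 394, 404 and 409 CPM, 919, 890.3 and 727 CPM, and 813, 727 and 428 CPM. Every CSA pool was above every saline pool, with pool 3 of 50 mg/kg close to saline in CD8+ T cells. By total UMIs that pool was below every CD8+ saline pool, and the CD8+ rise at 50 mg/kg did not pass. Ifi27l2a rose by 1.36 ± 0.06 and 1.07 ± 0.06 at 5 and 50 mg/kg in CD4+ (adjusted p = 1.42e-13 and 2.61e-12) and by 1.07 ± 0.15 and 0.70 ± 0.15 in CD8+ T cells (adjusted p = 7.54e-06 and 3.75e-04). Ifi35 (chr11:101448407-101458698), a partner of Nmi, was at 68.4, 61.4 and 65.1 CPM, 105, 95.7 and 93.7 CPM, and 115, 106 and 82.4 CPM in CD8+ T cells, all CSA pools above saline. Ifi35 rose by 0.63 ± 0.09 there (adjusted p = 5.87e-06) and by 0.60 ± 0.07 in CD4+ T cells. Ifi44, at 99 CD4+ UMIs over all pools, and the ligase gene Trim30a fell by 2.36 ± 0.44 and 0.33 ± 0.08 in CD4+ T cells at 50 mg/kg. Rtp4 rose by 0.33 ± 0.08 in CD4+ and 0.52 ± 0.18 in CD8+ T cells at 5 mg/kg and passed in neither at 50 mg/kg. By total UMIs neither rise passed, and the CD4+ change was -0.03. Xaf1 rose only at 5 mg/kg in CD8+ T cells (0.34 ± 0.11, and -0.08 by total UMIs). Ifi203, an AIM2-like DNA sensor that shares exon sequence with Mndal, rose by 0.25 ± 0.05 in CD8+ T cells at 50 mg/kg (-0.28 by total UMIs, past the threshold), and its relative Ifi206 gave -0.19 ± 0.10 and 0.18 ± 0.10.

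The change at 50 mg/kg was then compared between the lineages as an interaction, with pool as a block. The CD8+ change was above the CD4+ change for 11 of the 42 genes and below it for 3, beside 9.33% and 10.4% of all genes tested, and the median difference was 0.15 beside -0.01 over all genes. Without the block the 11 became 5. The differences above 0 were 1.75 ± 0.41 for Ifit3b, 1.71 ± 0.47 for Oasl1, 1.25 ± 0.23 for Ifit3, 0.91 ± 0.30 for Oasl2, 0.72 ± 0.19 for Slfn5 and 0.52 ± 0.18 for Usp18. Rtp4 (0.47 ± 0.14), Ifi206 (0.34 ± 0.12), Gbp2 (0.33 ± 0.11), Irf7 (0.24 ± 0.08) and Irgm1 (0.22 ± 0.08) followed. Those below 0 were Ifih1 (-0.59 ± 0.13), Ifi27l2a (-0.44 ± 0.12) and Samd9l (-0.44 ± 0.09). At 5 mg/kg 0 of the 42 genes passed edgeR's interaction test in either direction (7 had an unadjusted p under 0.05), where 2.12% of all genes passed above and 1.54% below, and the median difference was 0.04 beside -0.03.

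The genes upstream of the list were taken from lists of the pathway. The background at 50 mg/kg was 34.7% of all genes tested higher and 35.8% lower in CD4+, and 37.1% and 36.9% in CD8+ T cells. None of 17 type I interferon ligand genes was in the count table. Ifng, the type II ligand, fell at 50 mg/kg by 0.74 ± 0.18 in CD4+ (adjusted p = 8.63e-04) and by 1.06 ± 0.17 in CD8+ T cells (adjusted p = 1.58e-05). Of the kinases, Jak2 fell by 1.75 ± 0.07 and 1.19 ± 0.06 and Tyk2 by 0.51 ± 0.08 and 0.40 ± 0.10, while Jak1 fell by 0.19 ± 0.04 in CD4+ T cells and gave 0.04 ± 0.04 in CD8+ T cells. Of the receptor genes, 1 rose and 2 fell of 5 tested in CD4+ T cells, and 2 rose and 2 fell of 4 in CD8+ T cells. Ifngr1 fell by 0.94 ± 0.07 and 0.56 ± 0.04 and Ifnar1 by 0.16 ± 0.06 and 0.38 ± 0.08, while Ifnar2 gave 0.10 ± 0.08 in CD4+ and rose by 0.32 ± 0.07 in CD8+ T cells, and Il10rb, a chain shared with the type III receptor, rose by 0.63 ± 0.14 and 0.69 ± 0.09. Of 8 genes of IRFs and IRF2-binding proteins tested, 4 rose and 2 fell in CD4+ T cells and 4 rose and 3 fell in CD8+ T cells. Irf1, the IFN-γ responsive factor, fell by 0.53 ± 0.06 and 0.47 ± 0.06 in both. Irf3, Irf2bp1 and Irf2bpl rose in both lineages, while Irf8 rose by 0.69 ± 0.11 in CD4+ and fell by 0.53 ± 0.08 in CD8+ T cells. By total UMIs none of the receptor genes passed as higher in either lineage, and of the 8 genes Irf8 and Irf2bpl did in CD4+ and none did in CD8+ T cells. Of 7 negative regulators, 5 fell and none rose in CD4+ T cells, among them Socs3 by 0.76 ± 0.11 and Ptpn11 by 1.78 ± 0.06, and 4 fell and 2 rose in CD8+ T cells. At 5 mg/kg Socs3 passed as higher in both lineages on the TMM scale.

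Interferon-inducible genes beyond the 42 are given by family at 50 mg/kg. Over all genes tested, 34.7% rose and 35.8% fell in CD4+, and 37.1% rose and 36.9% fell in CD8+ T cells. Of 15 other GTPases tested, 13 fell and none rose in CD4+ T cells, and 12 fell and 1 rose in CD8+ T cells, at medians of -0.98 and -0.95, with Gbp5 down by 1.48 ± 0.10 and 1.45 ± 0.12 and Irgm2 by 1.23 ± 0.09 and 1.13 ± 0.10. Of the other interferon-stimulated genes, 27 fell and 16 rose of 55 in CD4+, and 17 fell and 23 rose of 56 in CD8+ T cells. Those CD8+ counts were near the background. Ifitm3 and Ifitm1, which block virus entry, fell by 2.69 ± 0.11 and 2.79 ± 0.17 in CD4+ T cells, while Ms4a4c rose by 1.65 ± 0.08 in CD4+ and 1.47 ± 0.14 in CD8+ T cells. At 5 mg/kg, by contrast, Ifitm3 and Ifitm1 passed as higher in both lineages on the TMM scale. Of 11 sensing genes tested in CD4+ T cells, 5 fell and 2 rose, and of 12 in CD8+ T cells, 7 fell and 3 rose.

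Markers of other cells that can respond to or make interferon were checked in the same sums, and their calls have the same background. Siglech, the defining gene of plasmacytoid dendritic cells, had 0 UMIs in CD4+ and 1 UMI in CD8+ T cells, and Klk1 was at 0 in CD8+ T cells. The 7 genes of that list, which holds Bst2 of the 42, summed to 225 to 235 CPM of total UMIs in the saline pools, 247 to 261 CPM at 5 mg/kg and 203 to 255 CPM at 50 mg/kg in CD4+ T cells, and to 219 to 226 CPM, 219 to 224 CPM and 151 to 199 CPM in CD8+ T cells. Of its 4 genes tested, Bst2 and Irf8 rose and Ccr9 and Tcf4 fell in CD4+ T cells, and Bst2 and Ccr9 rose and Tcf4 and Irf8 fell in CD8+ T cells at 50 mg/kg. The 12 myeloid markers summed to 549 to 622 CPM of total UMIs in saline and 1875 to 2407 CPM in 50 mg/kg pools of CD4+ T cells, and 879 to 983 CPM and 2292 to 2913 CPM in CD8+ T cells. Ly6c2, a gene that T cells also express, rose by 3.66 ± 0.09 and 2.65 ± 0.10, whereas Lyz2 fell by 1.22 ± 0.33 and 1.13 ± 0.30. None of the 12 was at 0. In CD4+ T cells 4 of 11 tested were higher (Ly6c2, Itgam, C1qb and Cst3) and 1 was lower, and in CD8+ T cells 7 of 12 were higher (Ly6c2, S100a8, S100a9, Itgam, Adgre1, C1qb and Cst3) and Lyz2 and Apoe were lower. The B cell list summed to 272 to 291 CPM in saline pools against 374 to 401 CPM at 50 mg/kg in CD4+ and to 229 to 242 CPM and 565 to 702 CPM in CD8+ T cells, and the erythroid list to 7.31 to 18 CPM and 29.5 to 39.7 CPM in CD4+ T cells. Their part in the changes of the interferon-stimulated genes was not tested.

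The summed level of the 42 genes hid these opposite changes. As CPM of total UMIs, the sum in CD4+ T cells was 4398, 4550.3 and 4381 in the saline pools. It was 4945, 5267 and 5084 in the 5 mg/kg pools, and 4745, 3954 and 3819 in the 50 mg/kg pools. The 5 mg/kg pools were above all others, and the 50 mg/kg pools lay on both sides of saline. Ifi27l2a alone supplied 26.8% ± 1.20, 47.0% ± 0.476 and 44.4% ± 0.933 of the CD4+ sum (SD, n = 3 pools each). Without it, the sum of the other 41 genes was 3249.9 ± 17.4, 2699.9 ± 92.7 and 2317 ± 253, every CSA pool being below every saline pool. On the TMM scale that order was lost, with 2701 ± 20.3, 2879 ± 114 and 2612 ± 281, the 5 mg/kg pools above all saline pools and the 50 mg/kg pools on both sides of them. In CD8+ T cells the full sum was 2759, 2732 and 2878 in the saline pools, 2847, 2778 and 2497 in the 5 mg/kg pools and 2681, 2516 and 1777 in the 50 mg/kg pools. The 50 mg/kg pools were below saline, and pool 3 lay far below the other pools. The log2 ratio to saline was -0.26 with it and -0.10 without it. Without Ifi27l2a the CD8+ sums were 2288 ± 72.5, 1923 ± 92.8 and 1758 ± 304, and on the TMM scale they turned to 1831 ± 58.0, 2071 ± 108 and 2034 ± 339. On the TMM scale, where saline pools are scaled down relative to CSA pools, the ratio of the full sum at 50 mg/kg to saline became 0.35 in CD4+ and 0.27 in CD8+ T cells, so the direction of the sum depended on the scale. In a sum over cells, fewer responding cells and less RNA per cell cannot be told apart.

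**Figure D3:**
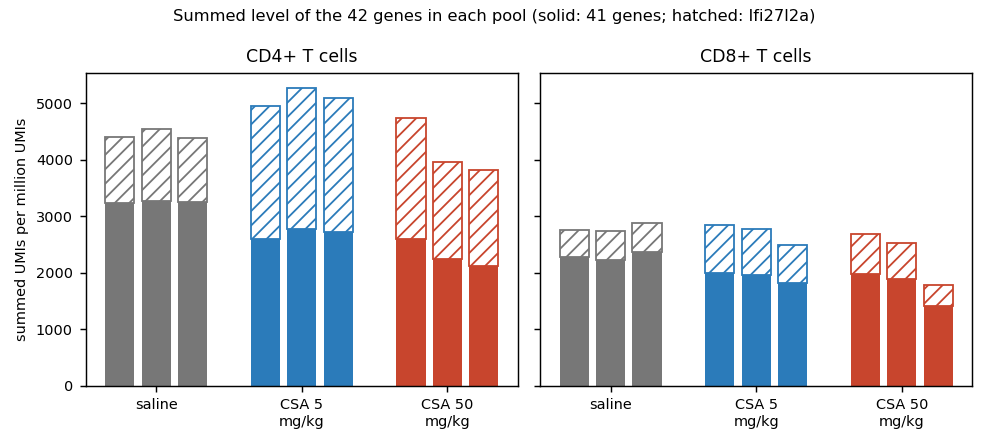
Summed level of the 42 genes (CPM of total UMIs) in each pool, as bars from 0, with the solid part for 41 genes and the hatched part for Ifi27l2a, in CD4+ (left) and CD8+ T cells (right). The solid part falls from a mean of 3249.9 to 2317 in CD4+ and from 2288 to 1758 in CD8+ T cells between saline and 50 mg/kg, while the mean of the hatched part is larger in each CSA group. In CD8+ T cells the hatched part of pool 3 of 50 mg/kg (366) lies below every saline pool (490.4, 504 and 509). On the TMM scale the mean of the 41 genes went from 2701 to 2612 in CD4+ and rose from 1831 to 2034 in CD8+ T cells.

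Across clusters, the list was concentrated in 1 small CD4+ cluster. The authors' clusters were used as deposited, made from these same counts, so levels over clusters are a description without a test. C10, named for high Isg15, held 202 of the 10091 CD4+ cells and summed to 20316 ± 2389.8 CPM of total UMIs (SD, 9 pools), ahead of regulatory T cells (C11, 8342, Foxp3 at 551 CPM over its cells), Tcf7-high precursor-like cells (C2, 6495) and naive cells (C9, 5941). C11 had only 5 pools of at least 10 cells, 3 of them at 50 mg/kg and 1 in each other group. The cycling clusters C6 and C3 were lowest, at 2697 and 2973. Without Ifi27l2a the order below C10 (14905) was another, led by C9 (4729.9) and C11 (4580.1), then the follicular helper cluster C4 (3182), C8 (3165), C0 (3101) and C2 (2827), with C3 (1786) and C7 (2186) lowest. Of the 42 genes, 41 were highest in C10, and Igtp was highest in C11 (601 CPM over its 5 pools beside 468 CPM in C10). Over all cells, C10 exceeded the other CD4+ cells 69.5-fold for Ifit3b, 54.0-fold for Ifit3, 46.3-fold for Rsad2 and 40.2-fold for Ifit1, and 17.6-fold for Isg15 (1608 and 91.2 CPM). The ratio was smaller for Ifi27l2a (3.18-fold), Ifi47 (2.90-fold) and Irf9 (2.12-fold).

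CD8+ T cells had no cluster of that kind. The highest CD8+ sum, 5785 ± 2352 in the Tcf7-high cluster C5, was followed by naive cells (C7, 4398) and Cd226-high effectors (C0, 4293), and the lowest was the cycling cluster C2 (1774). By gene, 24 of the 42 were highest in C5, 10 in C7, 6 in C0 and 1 each in C4 and C8. The spread in C5 came from 50 mg/kg, where the pools summed to 11808 (24 cells), 5497 (18 cells) and 3802 (34 cells), beside 4860.2, 4989 and 5251 with saline. The saline pools of C5 held 121 to 165 cells, so the value of pool 1 at 50 mg/kg rests on few cells. That pool enters the means by which sums and genes were ranked. Without Ifi27l2a, C5 was at 3955 CPM with saline, beside 3611 in C7 and 3332 in C0. At 5 mg/kg it was at 2955 CPM, below C7 (3769.7) and C0 (3312).

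**Figure D4:**
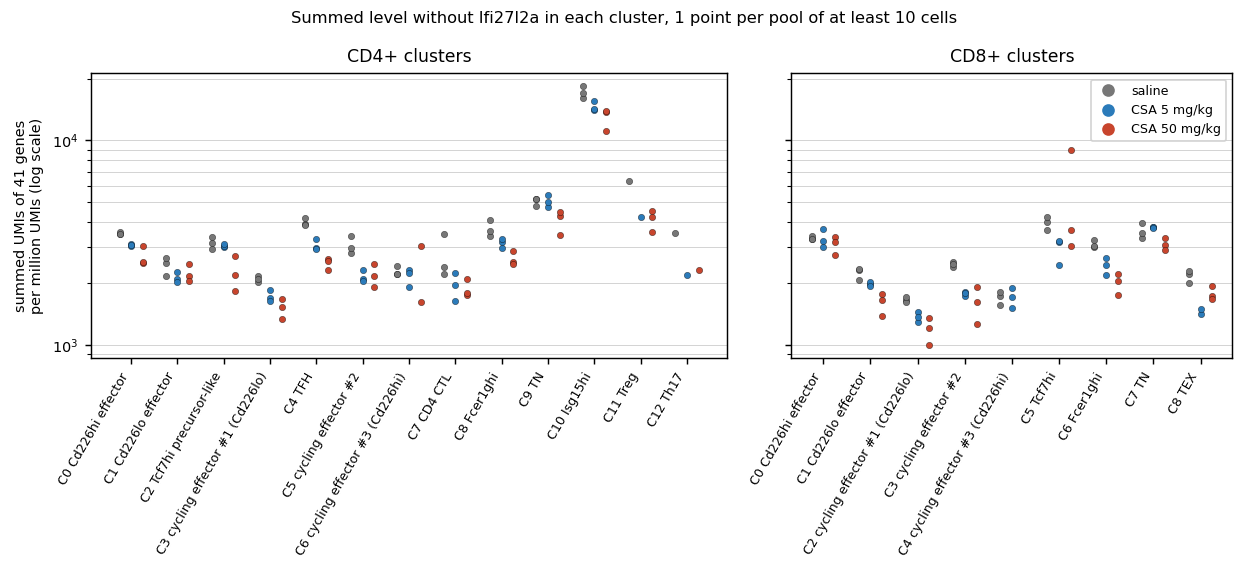
Summed level of 41 genes (without Ifi27l2a, CPM of total UMIs), on a log axis, in each CD4+ (left) and CD8+ cluster (right), with 1 point per pool of at least 10 cells, colored by treatment. C10 stands above every other CD4+ cluster, its pools running from 11138 to 18391, and in CD8+ cluster C5 the 50 mg/kg pools range from 3063 to 8937.

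The share of CD4+ T cells in C10 was 1.23%, 1.76% and 2.01% in the saline pools, 1.71%, 2.47% and 2.50% in the 5 mg/kg pools and 2.63%, 2.28% and 1.59% in the 50 mg/kg pools. The groups overlapped, with means of 1.67% ± 0.395, 2.23% ± 0.443 and 2.17% ± 0.527, and the trend over dose gave p = 0.388 (exact two-sided Jonckheere-Terpstra permutation test over all assignments of 9 pools). A change in the share of these cells was therefore not detectable with 3 pools a group. Inside C10 the sum without Ifi27l2a was 17149 ± 1160.4, 14634 ± 858 and 12931 ± 1553 CPM of total UMIs for saline and the lower and higher dose (SD, n = 3 pools). All CSA pools of C10 were below all its saline pools on that sum, with 14 to 29 cells in a pool.

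Within clusters the genes were tested where at least 2 pools per group had 10 cells, on the TMM scale alone. In C10 at 50 mg/kg, 15 of 39 genes tested were lower and 3 higher (background 18.2% and 17.9%, median -0.47), and the 15 became 10 and the median -0.28 without pool 2 of 50 mg/kg. The 3 were Isg15, Ifi47 and Ifi27l2a (0.68 ± 0.16, 0.56 ± 0.17 and 1.29 ± 0.13), and the lower ones included Parp14 (-1.69 ± 0.26), Ifih1 (-1.51 ± 0.27) and Rsad2 (-1.18 ± 0.34). In the Cd226-high CD4+ effectors (C0), 9 genes were higher and 11 lower of 35 (background 26.6% and 28.2%, median -0.19). The median of C0 ran from -0.40 without pool 1 of 50 mg/kg to -0.02 without pool 2 of 50 mg/kg or pool 2 of saline. In the Tcf7-high CD4+ cluster (C2), 1 was higher and 14 lower of 35 (background 11.6% and 11%, median -0.34, and -0.64 without pool 1 of 50 mg/kg). The CD4+ clusters C0 and C2 differed in sign for Isg15 (0.94 ± 0.17 and -1.68 ± 0.22) and Irf7 (0.62 ± 0.15 and -0.75 ± 0.19), each past the threshold in its own cluster. The difference between clusters was not tested.

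In Cd226-high CD8+ effectors (C0), 17 genes were higher and 6 lower of 36 (background 28.1% and 30.3%, median 0.30), among them Isg15 by 1.53 ± 0.14, Irf7 by 1.42 ± 0.13 and Ifit3 by 1.76 ± 0.22. The CD8+ cycling cluster C2 had 3 higher and 14 lower of 36 (background 27.2% and 27.5%, median -0.30), and the 3 were between 1 and 4 when a pool was left out, 1 without saline pool 2. In CD8+ C5, 13 genes were higher and 3 lower of 37 (background 17.1% and 17.7%, median 0.43). That count turned on the pool of 24 cells: without pool 1 of 50 mg/kg, 7 were higher and 5 lower with a median of -0.07, and without pool 3, 22 were higher and 0 lower. The 3 lower genes became 0 without pool 2 of 50 mg/kg or with at least 20 cells required per pool, and 1 without saline pool 3.

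The share of all genes past the threshold ran from 2.88% to 54.8% over the 11 CD4+ clusters and from 3.52% to 58.9% over the 8 CD8+ clusters. Ifih1 was lower in 9 of 10 CD4+ and 7 of 7 CD8+ clusters, Parp14 in 10 of 11 and 7 of 8, and Slfn5 in 8 of 10 CD4+ and 1 of 4 CD8+ clusters. Ifi47 was higher in 9 of 11 and 5 of 8 and lower in none. Isg15 was higher in 2 and lower in 2 of 11 CD4+ clusters, and higher in 3 and lower in 2 of 8 CD8+ clusters. Ifi27l2a was higher in 7 of 11 CD4+ clusters, and higher in 4 and lower in 2 of 8 CD8+ clusters. Bst2 was higher in 2 and lower in 1 of 11 CD4+ clusters and higher in 4 of 8 CD8+ clusters. Summed over clusters, there were 28 higher and 88 lower results in CD4+ T cells and 43 and 68 in CD8+ T cells, clusters of 1 lineage sharing their pools. A cluster had 20 to 39 of the genes tested in CD4+ and 22 to 37 in CD8+ T cells. The share of all genes in each direction was not summed over clusters, so these totals have no background beside them. Medians lay between -0.48 and 0.01 in CD4+ and between -0.48 and 0.43 in CD8+ clusters.

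**Figure D5:**
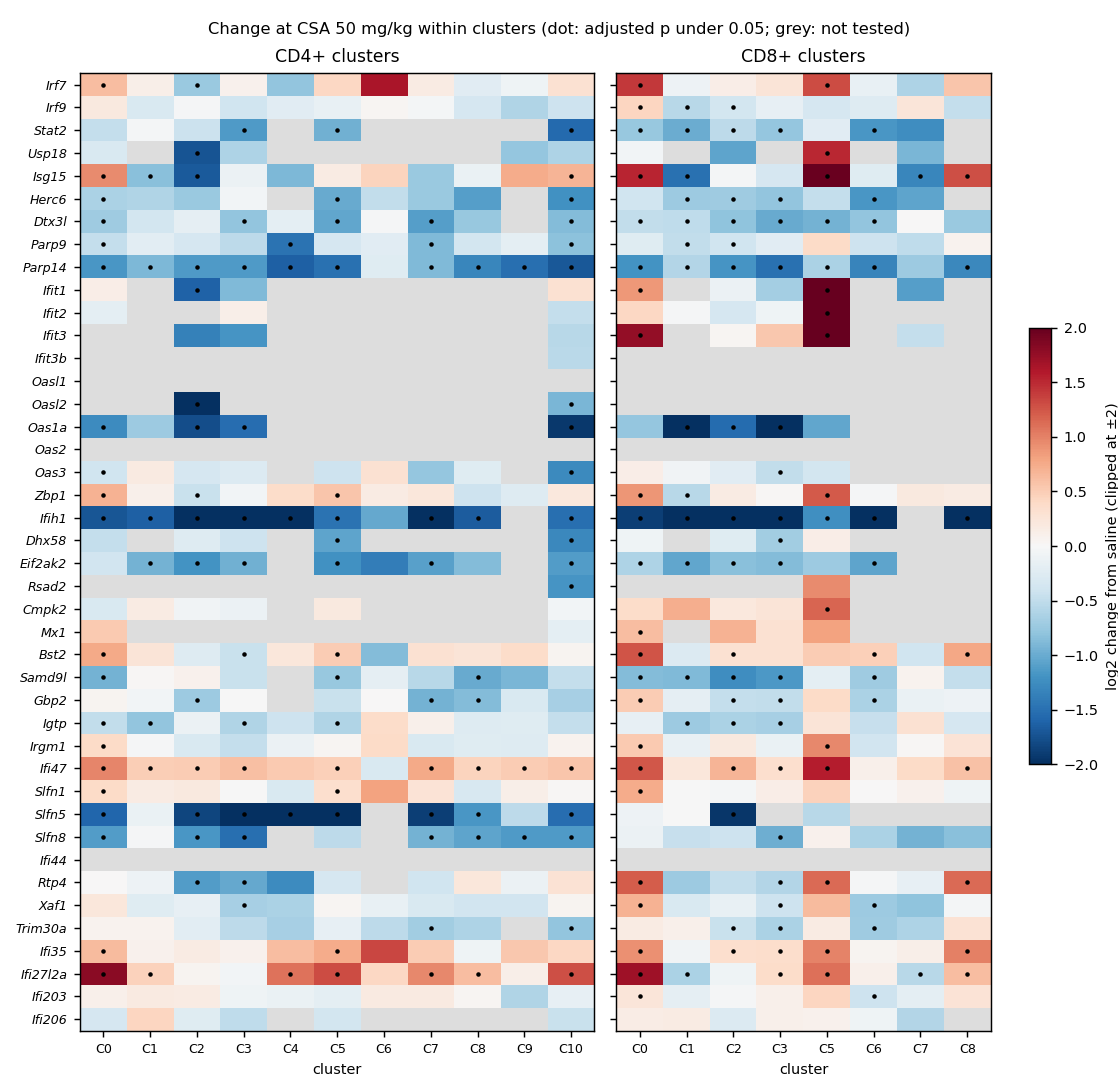
Log2 change at CSA 50 mg/kg from saline of each gene (rows) within each CD4+ (left) and CD8+ cluster (right), on a color scale clipped at 2 in each direction, with a dot where the adjusted p was under 0.05 and grey where a gene was not tested. Rows for Ifih1 and Parp14 are blue across clusters and the row for Ifi47 is mostly red, while Isg15 and Irf7 change color between clusters.

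Per cell, the 41 genes without Ifi27l2a were counted after thinning each cell to 2000 UMIs, since depth rose with dose. The share of CD4+ cells with at least 5 of these UMIs was 65.3% ± 0.849, 50.1% ± 1.88 and 43.0% ± 6.01, and of CD8+ cells 47.3% ± 0.711, 35.5% ± 2.43 and 29.5% ± 8.56 (SD, n = 3 pools). Unthinned, the same shares were 87.9%, 82.5% and 91.3%, and 87.3%, 89.8% and 90.1%. Thinning gives each cell the same total UMIs, so the thinned shares follow the total-UMI scale, on which the sum of the 41 genes fell. On the TMM scale the means of that sum were 2701, 2879 and 2612 CPM in CD4+ and 1831, 2071 and 2034 CPM in CD8+ T cells. Cells under 2000 UMIs were left out, 395, 452 and 80 CD4+ and 121, 83 and 8 CD8+ cells. Cells rich in these transcripts, with at least 20 UMIs of the 2000, numbered 233 among CD4+ cells, of which 135 (57.9%) were in C10. Among CD8+ cells there were 98, of which 52 (53.1%) were in C5 and 25 (25.5%) in C0. For saline, 5 and 50 mg/kg the share of rich cells was 2.77% ± 0.213, 2.82% ± 0.672 and 1.99% ± 0.473 in CD4+ T cells. In CD8+ T cells it was 1.07% ± 0.359, 0.927% ± 0.447 and 0.786% ± 0.390 (SD, n = 3 pools). Free RNA in the droplets adds to low counts in every cell, and its part in these shares was not tested.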

How the data were processed

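The deposited files hold UMI counts for each cell, which the authors made with Cell Ranger on mm10 and, per the submitters' processing notes, Seurat 3.0.0, with the authors' cell annotation (pool, lineage, cluster) and their mitochondrial fraction per cell, a share of UMIs that was not filtered further here. How the authors removed doublets is not given in the sources used here, and no caller was run. UMIs were summed per pool and lineage over 18029 genes, leaving out TEa cells, which are a monoclonal graft component. The summed UMIs of all 21204 cells equalled the deposited UMI number. Genes were filtered with filterByExpr, scaled with TMM and fitted over all 9 pools with the quasi-likelihood test of edgeR 4.0.16 (limma 3.58.1, R 4.3.3), with Benjamini-Hochberg adjustment over all genes tested and a threshold of 0.05. Within clusters, pools of at least 10 cells were used, and the difference between lineages was fitted with pool as a block. Thinning to 2000 UMIs used 1 random draw. The model was tested on simulated data in which few genes changed, equally in both directions. That setting does not test the choice of scale or a difference between captures. Named genes were the 8 largest changes per lineage at 50 mg/kg with a mean of at least 20 CPM, those of opposite call between doses, and Irf7, Irf9, Stat2, Usp18 and Isg15, and other genes are given by their role. The 42 genes and all lists were chosen with earlier results of these data known. Alternatives included DESeq2 1.42.0, total UMI scaling, no filter, leaving out a pool and leaving out cycling clusters. The sum without Ifi27l2a, the sum on the TMM scale, both together and leaving out pools within clusters were added after seeing the data. Gene positions are from GENCODE M21 on GRCm38 and promoters from RefSeq. Pool totals set the precision of each value, and p-values cover the spread between pools only. Some items are not reported here.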

Additional observations from a re-analysis of the deposited data

Results flagged for a closer look

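The change at 50 mg/kg differed between CD8+ and CD4+ T cells for 14 genes by the interaction test (edgeR, adjusted p under 0.05), with pool as a block. The CD8+ minus CD4+ difference was 0.24 for Irf7 (adjusted p = 0.0342), 0.52 for Usp18 (adjusted p = 0.0480), 1.25 for Ifit3 (adjusted p = 2.75e-04) and 1.75 for Ifit3b (adjusted p = 0.00329). It was 1.71 for Oasl1, 0.91 for Oasl2, 0.33 for Gbp2, 0.22 for Irgm1, 0.72 for Slfn5, 0.47 for Rtp4 and 0.34 for Ifi206. It was below 0 for Ifih1 (-0.59, adjusted p = 0.00129), Samd9l (-0.44, adjusted p = 9.60e-04) and Ifi27l2a (-0.44, adjusted p = 0.00758). Each lineage came from the same 9 pools and 3 captures.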

How the results depend on the processing

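Of 104 gene results past the threshold, 90 kept direction and call with DESeq2 and 14 lost the call, 66 kept it with total UMI scaling, 21 lost it and 17 changed sign. Without cycling clusters 92 kept it, and over the 936 results of leaving out a pool 57 lost it and 0 changed sign. By total UMIs the genes higher and lower were 4 and 24 in CD4+ T cells at 5 mg/kg, 2 higher at 50 mg/kg, 2 and 19 in CD8+ T cells at 5 mg/kg, and 2 and 24 at the higher dose, with 2 higher from 5 to 50 mg/kg. The signs that turned by total UMIs were Usp18 -0.05 and Rtp4 -0.03 (CD4+, 5 mg/kg), Irf7 -0.10, Isg15 -0.08 and Slfn1 -0.22 (CD4+, 50 mg/kg), Oas1a -0.05, Gbp2 -0.18, Irgm1 -0.11, Xaf1 -0.08 and Ifi203 -0.30 (CD8+, 5 mg/kg), and Isg15 -0.09, Ifit1 -0.12, Zbp1 -0.06, Cmpk2 -0.15, Irgm1 -0.23, Slfn1 -0.04 and Ifi203 -0.28 (CD8+, 50 mg/kg). Without a low-count filter 5 genes were higher from 5 to 50 mg/kg in CD4+ T cells, and with only those groups fitted 3 in CD8+ T cells. Without cycling clusters 9 CD8+ genes were higher at 50 mg/kg and 3 from 5 to 50 mg/kg (2836 of all genes called), and Ifi203 at 5 mg/kg was -0.03. In CD8+ C5, 0 were lower with at least 20 cells per pool. The cause was not tested in these cases.

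Log2 ratios of the summed level to saline at 5 and 50 mg/kg were 0.34 and 0.01 in CD4+ T cells without ribosomal protein and mitochondrial UMIs, -0.27 and -0.49 without Ifi27l2a, 0.56 and 0.35 with TMM, and 0.09 at 5 mg/kg with TMM and without Ifi27l2a. In CD8+ T cells they were 0.12 at 5 mg/kg without ribosomal protein and mitochondrial UMIs, -0.25 at 5 mg/kg without Ifi27l2a, 0.39 and 0.27 with TMM, and 0.18 and 0.15 with TMM and without Ifi27l2a. Leaving out a pool gave 1 to 6 CD4+ genes higher from 5 to 50 mg/kg (1 without pool 1 and 6 without pool 3 of 50 mg/kg), 9 to 16 CD8+ genes higher at 5 mg/kg (9 without pool 1 of 5 mg/kg), and 2 to 12 higher and 6 to 15 lower CD8+ genes from 5 to 50 mg/kg. It gave 1 to 4 genes higher in CD8+ C2, 7 to 22 higher and 0 to 5 lower in CD8+ C5, and -0.08 to 0.01 for the CD8+ sum at 5 mg/kg (0.01 without pool 3 of 5 mg/kg).

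With the hashtag number as a replicate block, 11 genes were higher and 12 lower in CD4+ T cells at 5 mg/kg, 8 and 23 at the higher dose, and in CD8+ T cells 16 and 10, then 15 and 12. From 5 to 50 mg/kg they were 3 and 24 in CD4+ and 6 and 12 in CD8+ T cells, and none of the 104 results lost its call. The pool numbers do not pair the samples: deviations of same-numbered pools correlated between -0.0894 and 0.074. Without the block in the lineage comparison, 219 genes of all passed at 5 mg/kg, and 5 of the 42 lay above at 50 mg/kg. With 3 pools a group from 1 capture, differences between captures could not be separated, and low genes such as Ifi44 rest on few UMIs.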
